A study of Mus musculus with 11 samples.

Results

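Myc and 6 genes of the BCL2 family, Bcl2, Bcl2l1, Mcl1, Bcl2l11, Pmaip1 and Bbc3, were examined for binding of the transcription factors IRF4 and PU.1 in activated mouse B cells. These are 7 of 22367 protein-coding genes. A peak was assigned to one of them when its position lay in the gene or within 20 kb of it, and for Bcl2l11 also when it lay anywhere in the neighbouring gene Acoxl. At the edge of this rule, the outermost IRF4 position taken in lay 16.6 kb from Bcl2l1 and was called in 1 library. It was in an intron of Tpx2, 0.339 kb from the start of that gene. The nearest position left out lay 20.6 kb from Pmaip1, also in 1 library. The genes were selected on their peaks in these lists, which were known when the genes were chosen, so counts of peaks and regions are given as a description and none is tested.

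MYC is a transcription factor that drives growth and division, and B cells raise it on activation. BCL2, BCL-XL (encoded by Bcl2l1) and MCL1 are pro-survival proteins of the mitochondrial outer membrane, which hold the pore formers BAX and BAK in check. BIM (Bcl2l11), NOXA (Pmaip1) and PUMA (Bbc3) are BH3-only proteins, which bind the pro-survival members and thereby promote cell death. IRF4 rises on B cell activation, stays high in plasma cells, and binds DNA together with PU.1 at Ets-IRF composite elements, with AP-1 factors at other composite elements, or as IRF pairs.

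The assay was chromatin immunoprecipitation with sequencing (ChIP-seq), in which DNA recovered with an antibody is sequenced and places of enrichment are called as peaks. The cells were splenic B cells of B1-8i mice of the 129 strain background, which carry a gene-targeted anti-NP antibody gene. Cultures were seeded at 0.5 M cells per mL and stimulated with CD40L, the cytokines IL-2, IL-5 and IL-4, and NP-Ficoll at 0.01 ng/mL. The groups were IRF4 after 3 days of stimulation, when the cells had differentiated into plasma cells (3 libraries), IRF4 after 1 day, when they were activated (3 libraries), PU.1 after 3 days (2 libraries), PU.1 after 1 day (2 libraries), and 1 input library from immature or peripheral B cells (2 preparations, pooled), which the authors used as background. The labels name the starting cells only as resting mature B cells, so the share of plasma cells in the day 3 cultures is not given, and a site bound in fewer cells cannot be told apart from one bound more weakly in each cell. Whether the replicates are separate animals, separate cultures or repeat libraries is not stated in the labels, so their spread may be technical.

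At the 7 genes lay 10, 6 and 25 of the 2784, 1408 and 5595 IRF4 peaks in day 3 replicates 1, 2 and 3, and 5, 23 and 20 of the 825, 9326 and 8929 in day 1 replicates 1, 2 and 3. For PU.1 these were 74 of 34410 and 72 of 34061 in the day 3 libraries, and 53 of 27321 and 67 of 38052 in the day 1 libraries. The IRF4 lists also end at different levels, with a lowest enrichment of 15.0 to 16.9 on day 3 and of 20.9 to 21.9 on day 1. A weak site could thus enter a day 3 list and miss a day 1 list. Since each list has its own scale, this is only a possibility, and it was not tested. In addition to these library lists the authors deposited a joint list for each factor on each day, referred to as a group list. Binding lists hold no expression, and so the cell type could be described only by where peaks lay. IRF4 group-list peaks lay at 2 of 5 B lineage markers on day 3 and 5 of 5 on day 1. They lay at 2 of 4 and 1 of 4 plasma cell markers, 1 of 4 and 2 of 4 myeloid markers, and 0 of 4 T cell markers on both days. Over all protein-coding genes the shares were 8.46% and 10.0%. PU.1 group-list peaks lay on both days at 5 of 5 B lineage markers and at 3 of 4 plasma cell, myeloid and T cell markers each. Their shares over all genes were 54.4% and 52.2%. These few counts do not establish the cell type.

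The sequences below come from the 7 regions called in 5 or more IRF4 libraries and from the Bcl2l1 region in the day 3 group list, and are shown for their motif matches. The first 7 are 100 bases of the plus strand of the mm9 reference around the motif match or matches of a region, and the last is 300 bases centred on the strongest IRF4 region of the set. Capitals mark, in order, an Ets-IRF composite element (EICE: GGAA and GAAA with 2 bases between them) at Myc and at the first Bcl2 region, an NF-kB pattern (GGGA and TTCC with 2 bases between them) at the second, a composite element with 1 base changed (GGAA and GAGA with 2 bases between them, here on the minus strand) at the third, an EICE on the minus strand at the fourth, an EICE on the minus strand and an AP-1 site (TGANTCA) at Bcl2l1, an AP-1 site and a PU.1 site (GAGGAAGT, on the minus strand) at Mcl1, and 4 copies of the changed composite element in the Acoxl intron.
Myc, chr15:61831279-61831378: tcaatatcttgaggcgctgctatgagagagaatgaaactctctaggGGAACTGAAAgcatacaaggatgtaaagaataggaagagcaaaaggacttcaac
Bcl2 at 161.2 kb, chr1:108449590-108449689: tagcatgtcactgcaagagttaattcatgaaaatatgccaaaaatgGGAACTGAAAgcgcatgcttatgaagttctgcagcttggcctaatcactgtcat
Bcl2 at 146.6 kb, chr1:108464186-108464285: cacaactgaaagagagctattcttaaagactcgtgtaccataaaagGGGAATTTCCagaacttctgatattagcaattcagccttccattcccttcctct
Bcl2 at 143.2 kb, chr1:108467644-108467743: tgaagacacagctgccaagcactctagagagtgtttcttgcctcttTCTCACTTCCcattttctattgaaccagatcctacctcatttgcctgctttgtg
Bcl2 at 59.8 kb, chr1:108550996-108551095: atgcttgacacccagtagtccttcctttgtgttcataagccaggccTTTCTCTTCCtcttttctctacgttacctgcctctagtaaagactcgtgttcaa
Bcl2l1 at 21.4 kb, chr2:152635983-152636082: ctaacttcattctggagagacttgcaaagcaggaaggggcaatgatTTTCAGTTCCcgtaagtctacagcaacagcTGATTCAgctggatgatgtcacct
Mcl1 at -7.9 kb, chr3:95454698-95454797: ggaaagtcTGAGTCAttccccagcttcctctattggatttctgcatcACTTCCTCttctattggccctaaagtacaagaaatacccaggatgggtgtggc
Acoxl intron, chr2:127834471-127834770: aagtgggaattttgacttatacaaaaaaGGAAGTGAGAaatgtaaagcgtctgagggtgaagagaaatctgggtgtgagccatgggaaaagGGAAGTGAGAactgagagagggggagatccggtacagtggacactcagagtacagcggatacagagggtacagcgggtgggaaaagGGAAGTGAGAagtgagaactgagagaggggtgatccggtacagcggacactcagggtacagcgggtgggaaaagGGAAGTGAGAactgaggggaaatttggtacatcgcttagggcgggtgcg

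IRF4 group-list peaks lay at 5 of the 7 genes on each day, while PU.1 group-list peaks lay at all 7 on both days. On day 3 the IRF4 genes were Myc, Bcl2, Bcl2l1, Mcl1 and, through Acoxl, Bcl2l11. On day 1 they were Myc, Bcl2, Mcl1, Bcl2l11 through Acoxl, and Pmaip1. Bbc3 had no IRF4 group-list peak on either day, and Bcl2l11 had none without Acoxl. For PU.1, Bcl2l11 without Acoxl had 3 group-list peaks on day 3 and 0 on day 1, so the 7 of day 1 also depends on Acoxl. Over all protein-coding genes such an IRF4 peak lay at 8.46% on day 3 and 10.0% on day 1, and a PU.1 peak at 54.4% on day 3 and 52.2% on day 1. These shares count each gene and 20 kb around it, with no neighbouring gene added. With 5 kb in place of 20 kb around the genes, 3 genes on day 3 and 2 on day 1 had an IRF4 group-list peak. With group lists rebuilt from the remaining libraries, the count for day 3 was 2 without day 3 replicate 1 and 3 without replicate 3, and that for day 1 was 3 without day 1 replicate 2 or 3.

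Peak positions of the libraries of a factor that lay less than 200 bp apart were merged into regions. The 7 genes held 47 of the 20058 IRF4 regions. Of these, 2 were called in all 6 IRF4 libraries, both in Bcl2, 7 in 5 or more, and 30 in a single library. That is 63.8% in a single library, against 79.1% of all IRF4 regions. Without day 3 replicate 3, or without day 1 replicate 1, 4 regions were called in all remaining IRF4 libraries. A PU.1 peak lay less than 200 bp away at 15 of the 17 regions called in 2 or more IRF4 libraries and at 11 of the 30 called in 1 (88.2% and 36.7%). Over all IRF4 regions these shares were 72.2% and 25.1%, so PU.1 was also more frequent at the recurrent regions of the whole series.

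**Figure D1:**
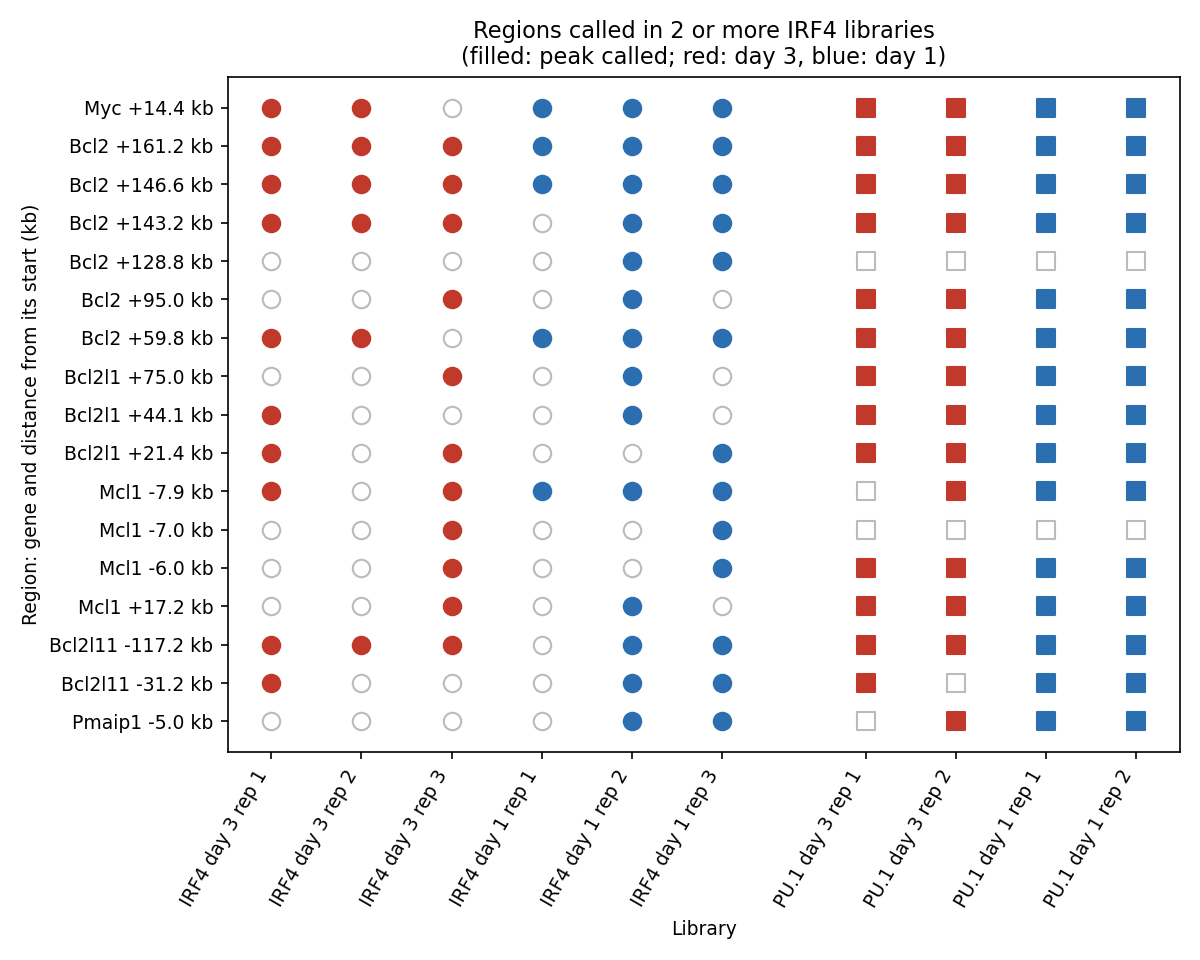
Each row is an IRF4 region called in 2 or more IRF4 libraries, named by its gene and its distance from the start of the gene in kb, and each column is a library. Filled marks are called peaks (red for day 3, blue for day 1; circles for IRF4, squares for PU.1 within 200 bp); the 2 rows filled in all 6 IRF4 columns are both in Bcl2.

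At Myc (chromosome 15, 61816946 to 61821929, plus strand) a single region recurred. It lay in intergenic sequence 14.4 kb beyond the start of the gene, at position 61831333. Of the annotated starts of protein-coding genes, that of Myc was the nearest. The authors' fold enrichment was 49.5 and 30.3 in IRF4 day 3 replicates 1 and 2, with no peak in replicate 3, and 58.0, 82.3 and 99.1 in day 1 replicates 1, 2 and 3. These values are on the scale of each list, where they ranked 252 and 388 on day 3 and 34, 242 and 104 on day 1. PU.1 was called 23 bp away in all 4 libraries, with 353 and 261 in the day 3 libraries and 147 and 214 in the day 1 libraries. The EICE shown above was centred at -4 bp from the IRF4 position. The other 2 IRF4 regions of Myc, in a UTR and in an intron, were called in day 1 replicate 2 alone, and neither had a PU.1 peak.

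Bcl2 (chromosome 1, 108434755 to 108610851, minus strand) had the largest number of IRF4 regions of the 7 genes, with 15, each of them in an intron. Its window is also long, and per 100 kb of gene and flanks it had 6.94 regions, against 20.2 at Mcl1. There were 4 group-list peaks on day 3 and 5 on day 1, which 13 and 17 genes of the 22367 matched or exceeded, Bcl2 included. Its 4 regions in 5 or more libraries were equalled by 1 other gene, Gm20388, an annotated gene of 4435 kb against 176 kb for Bcl2. At least 1 such region was found at 769 genes (3.44%), Myc and Mcl1 among them.

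The regions of Bcl2 called in all 6 IRF4 libraries lay towards the 3′ end of the gene, in an intron that also overlaps an intron of D630008O14Rik. The region 161.2 kb from the start (position 108449660) had enrichments of 59.8, 41.0 and 57.2 on day 3 and 35.9, 82.0 and 62.5 on day 1. PU.1 enrichment there was 409 and 388 in the day 3 libraries and 212 and 408 in the day 1 libraries, and the composite element was the same 10 bases as at Myc. The region 146.6 kb from the start (position 108464277) had 42.3, 30.0 and 64.5 on day 3 and 33.6, 80.4 and 99.5 on day 1. It held the NF-kB pattern and no EICE, and PU.1 was called in all 4 libraries there too, with 69.2 and 33.1 in the day 3 libraries and 44.96 and 39.2 in the day 1 libraries.

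Closer to the start of Bcl2 lay its other recurrent regions. The region 143.2 kb from the start (position 108467678) was missing in day 1 replicate 1 alone, with 37.6, 49.3 and 59.4 on day 3 and 46.7 and 58.7 in the other day 1 libraries. PU.1 was strong there, at 473 and 689 in the day 3 libraries and 317 and 442 in the day 1 libraries. The region 59.8 kb from the start (position 108551012) was missing in day 3 replicate 3 alone, with 23.0 and 26.2 in the other day 3 libraries and 21.3, 51.5 and 34.0 on day 1. It ranked 1475 of 2784 and 574 of 1408 in these day 3 lists and 781 of 825, 900 of 9326 and 2180 of 8929 in the day 1 lists. Both had PU.1 peaks in all 4 libraries, and each held one of the composite patterns shown above. Weaker regions 128.8 kb and 95.04 kb from the start were called in 2 IRF4 libraries each. The one at 128.8 kb was called in day 1 replicates 2 and 3, entered the day 1 group list with 25.5, and was the one of these Bcl2 regions with no PU.1 peak.

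**Figure D2:**
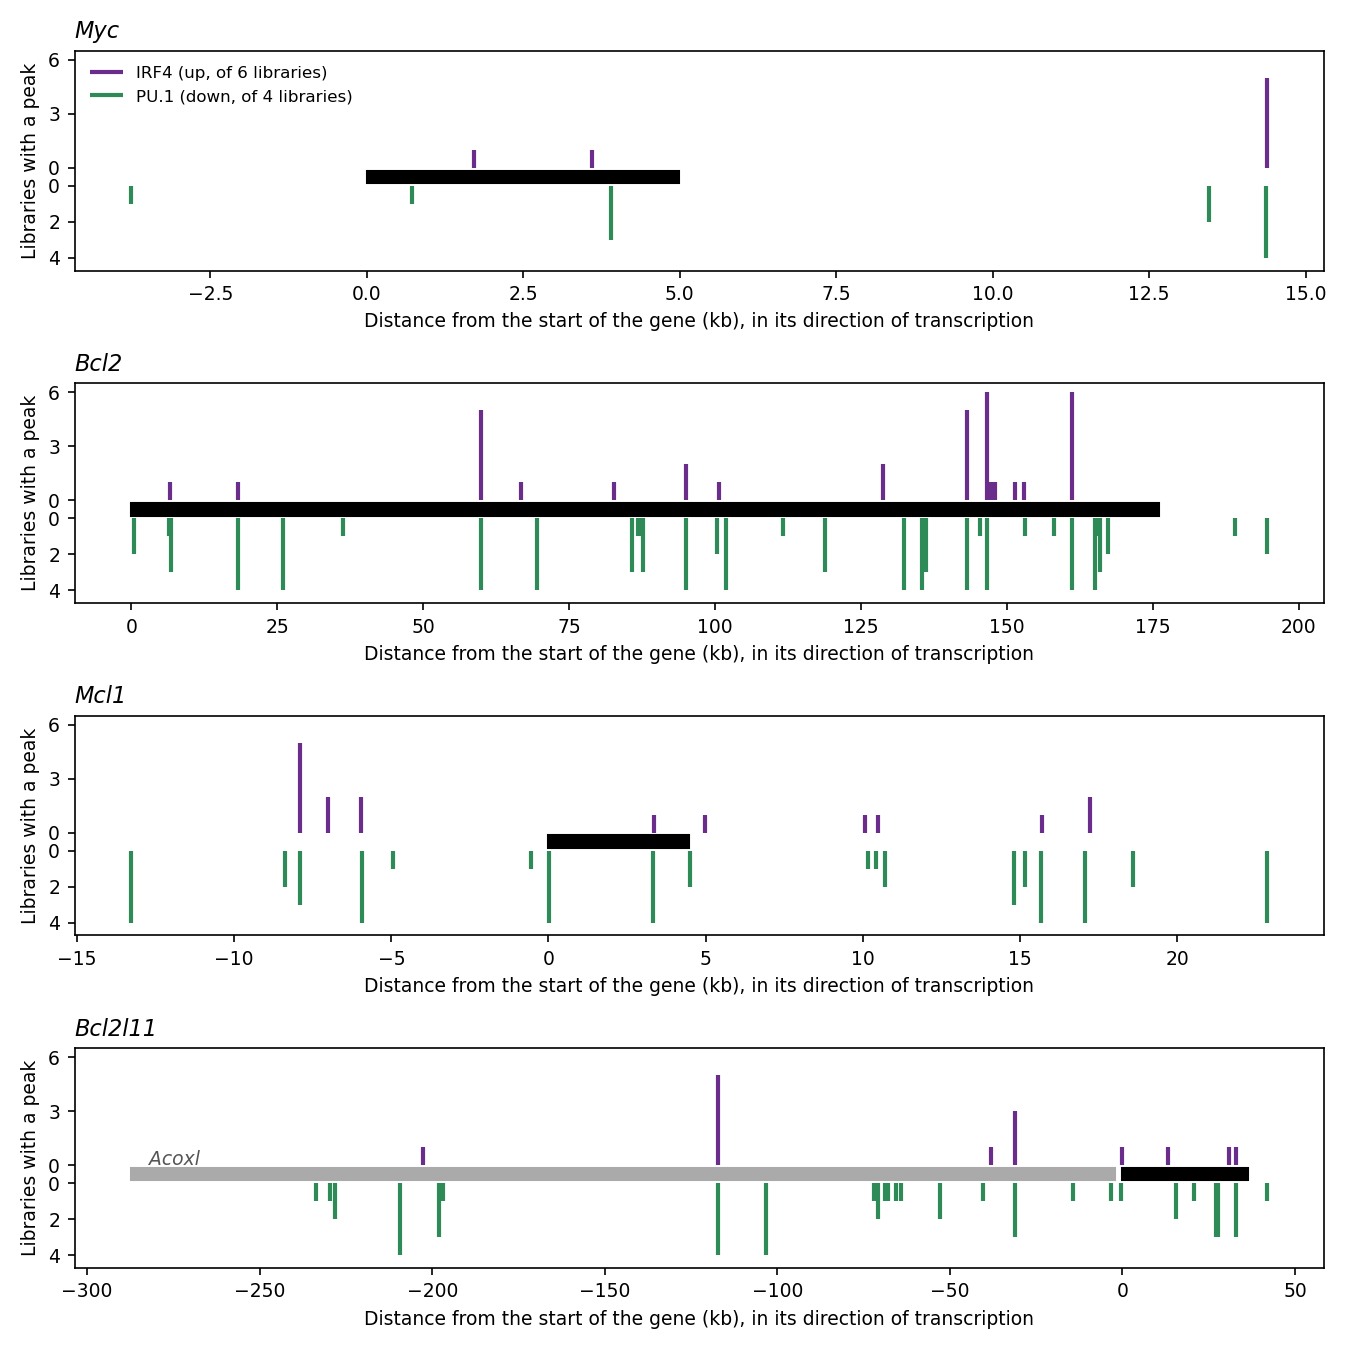
The number of libraries with a peak is drawn at each region of Myc, Bcl2, Mcl1 and Bcl2l11, for IRF4 upwards (of 6) and for PU.1 downwards (of 4), against distance from the gene start in kb in the direction of transcription; black bars are the genes and the grey bar is Acoxl. The 4 tall IRF4 bars of Bcl2 lie inside the gene, and the tall bar of Bcl2l11 lies 117.2 kb upstream, in Acoxl.

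Bcl2l1 (chromosome 2, 152593052 to 152657464, minus strand) held 7 IRF4 regions, none of them in more than 3 libraries. The region 21.4 kb from the start, in an intron at position 152636073, was called in 2 day 3 libraries (19.98 in replicate 1 and 18.2 in replicate 3) and in 1 day 1 library (35.6 in replicate 3). It was the only IRF4 group-list peak of Bcl2l1, on day 3, and its value of 19.98 lies below the lowest enrichment of each IRF4 day 1 library. PU.1 was called there in all 4 libraries, and the EICE was again that of Myc, on the other strand. Regions 44.1 kb from the start, in an intron, and 75.0 kb from it, in an intron of the neighbour Cox4i2, were each called in 1 library of each day. Both had PU.1 in all 4 libraries, and both lay nearer the start of Cox4i2, at 33.5 and 2.5 kb from it.

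Mcl1 (chromosome 3, 95462643 to 95467099, plus strand) encodes the short-lived pro-survival protein that B cells and plasma cells depend on. Its 9 IRF4 regions gave 20.2 per 100 kb of gene and flanks, against 6.94 at Bcl2 and 6.67 at Myc. Of the 9, 5 were called in a single library, 4 of them in day 3 replicate 3. That library held 8 peaks at Mcl1, against 1 and 0 in day 3 replicates 1 and 2 and 1, 2 and 4 on day 1. The most recurrent region lay in intergenic sequence 7.9 kb upstream (position 95454754) and was missing in day 3 replicate 2 alone. Its IRF4 enrichment of 28.7 and 20.7 on day 3 and 31.1, 24.6 and 29.9 on day 1 lay near the medians of these lists (23.8, 20.4, 28.1, 25.8 and 26.4 in the same order), whereas PU.1 reached 285 in 1 day 3 library and 241 and 262 on day 1. In PU.1 day 3 replicate 1 no position lay within 200 bp of it. No EICE was found there; the AP-1 and PU.1 sites shown above were centred at -45 and -6 bp from the IRF4 position. Regions at -7.0, -6.0 and 17.2 kb were called in 1 library of each day. The last of them lay nearer the start of Adamtsl4, at 12.0 kb from it.

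Among the BH3-only genes, Bcl2l11 was assigned the IRF4 peak with the highest enrichment at any of the 7 genes in each library that held it, through its neighbour. Bcl2l11 lies on chromosome 2, 127951774 to 127988283, plus strand. The peak lay in an intron of Acoxl (chromosome 2, 127664612 to 127949609, plus strand) at position 127834621. This was 117.2 kb upstream of the start of Bcl2l11, the nearest annotated start of a protein-coding gene. The authors' fold enrichment was 81.9, 61.6 and 365 on day 3 and 128 and 101 in day 1 replicates 2 and 3, with no peak in day 1 replicate 1. Its rank was 34, 34 and 2 in the day 3 lists and 47 and 94 in these day 1 lists. It was also in the group lists of both days, whose values are not on 1 scale, so no rank is given there. PU.1 was called 9 bp away with 1091 and 585 in the day 3 libraries and 403 and 480 in the day 1 libraries, at ranks 69 and 328 of the day 3 lists and 328 and 490 of the day 1 lists.

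The Acoxl region held no EICE, but 5 copies of the pattern with 1 base changed within 400 bp of sequence. It was the only one of the 20058 IRF4 regions with 5 or more copies in such a window. With 3 or more copies there were 6 IRF4 regions, and 2 of the 57563 PU.1 regions held 5 or more. The pattern was taken from these sequences and the cut-off of 5 is the count of this region, so its standing alone supports nothing. The copies at Acoxl lie in a short repeated sequence. Of the 281 stretches of 20 bases in the 300 bases printed above, 45 (16.0%) occur more than once. A second Acoxl region, 31.2 kb upstream of Bcl2l11, was called in 1 day 3 and 2 day 1 libraries with at most 42.6. In Bcl2l11 itself and 20 kb around it there were 4 IRF4 regions, each in a single day 1 library. The one 0.07 kb upstream of the start, in day 1 replicate 3, had an enrichment of 29.3 and no PU.1 peak.

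Pmaip1 (chromosome 18, 66618258 to 66625204, plus strand) had 3 IRF4 regions. The recurrent one, 5.03 kb upstream, was called in day 1 replicates 2 and 3 with 38.1 and 40.8 and in no day 3 library, and entered the day 1 group list. PU.1 was called 101 bp away in 1 day 3 library and both day 1 libraries. Bbc3 (chromosome 7, 16894965 to 16903554, plus strand) had 2 IRF4 regions, both in day 3 replicate 3 alone, with 20.7 and 15.8. The stronger lay 0.951 kb upstream of the start, held 2 EICE matches and an ISRE (a pair of IRF sites: GAAA and GAAA with 2 bases between them), and had PU.1 in all 4 libraries. Both values were below the lowest enrichment of every IRF4 day 1 list.

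**Figure D3:**
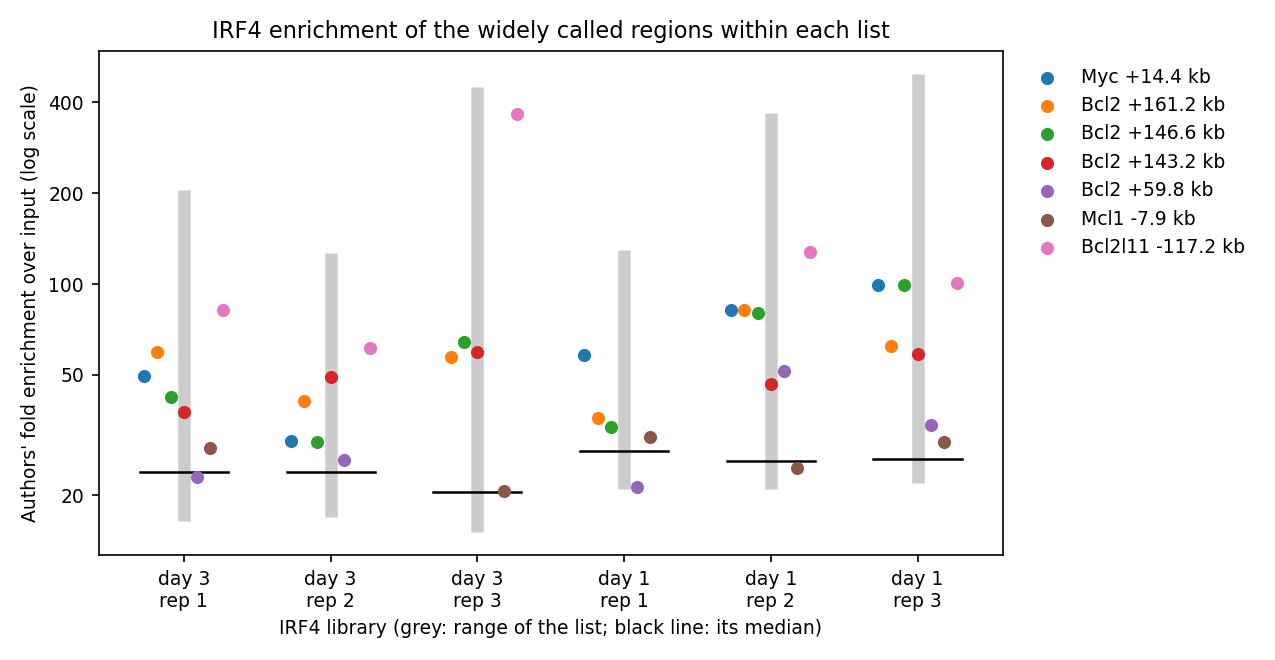
The authors' fold enrichment over input (log scale) is shown for the 7 regions called in 5 or more IRF4 libraries, 1 colour each, beside the range (grey) and median (black line) of all peaks in each of the 6 IRF4 library lists. The Acoxl region (Bcl2l11, -117.2 kb) is the highest of the set wherever it was called, and the Mcl1 region stays close to the median of its lists.

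Setting day 3 against day 1, no IRF4 region of the 7 genes was called in all 3 libraries of one day and in none of the other. Over all IRF4 regions, 0.359% were called in all 3 day 3 and no day 1 library, and 0.189% the other way round, so few were found anywhere. More day 3 than day 1 libraries called 17 regions (36.2%, against 24.0% of all IRF4 regions), and 14 of these were called in day 3 replicate 3 alone (29.8% of the 47, against 16.0% of all). Without this library the count was 0. The regions called in it alone then drop out by definition, and fewer day 3 than day 1 libraries remain, so a fall was built in. With a common lowest enrichment of 21.9 for all IRF4 lists the count was 5. More day 1 than day 3 libraries called 22 regions (46.8%, against 68.6% of all), and 8 were called equally often.

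The number of IRF4 peaks overlapped between the days at each of the 7 genes. Bcl2 had 4, 4 and 8 peaks in the day 3 libraries and 3, 9 and 7 in the day 1 libraries (means 5.33 ± 2.31 and 6.33 ± 3.06, SD, n = 3 each). Mcl1 had 1, 0 and 8 on day 3 and 1, 2 and 4 on day 1. Myc had 1, 1 and 0 on day 3 and 1, 3 and 1 on day 1. At Bcl2 the 3 longest lists, day 3 replicate 3 and day 1 replicates 2 and 3, held the most peaks, and the shortest, day 1 replicate 1, held the fewest. The part of list length in these counts was not tested. Over all genes, the IRF4 counts of every day 3 library exceeded those of every day 1 library at 0.156% of genes, and the reverse held at 0.107%.

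PU.1 peaks were more numerous on day 3 at Bcl2 and Bcl2l11. Bcl2 had 23 and 23 in the day 3 libraries and 17 and 21 in the day 1 libraries. Bcl2l11 with Acoxl had 15 and 15 on day 3 and 8 and 11 on day 1. At the other 5 genes the libraries of the days met or overlapped, as at Mcl1 with 12 and 13 on day 3 and 11 and 12 on day 1. Over all genes, PU.1 counts of both day 3 libraries exceeded both day 1 libraries at 7.27%, and the reverse held at 2.37%. With 2 libraries against 2, no exact permutation test can go below p = 0.333, and with 3 against 3 none can go below 0.1; none was made.

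**Figure D4:**
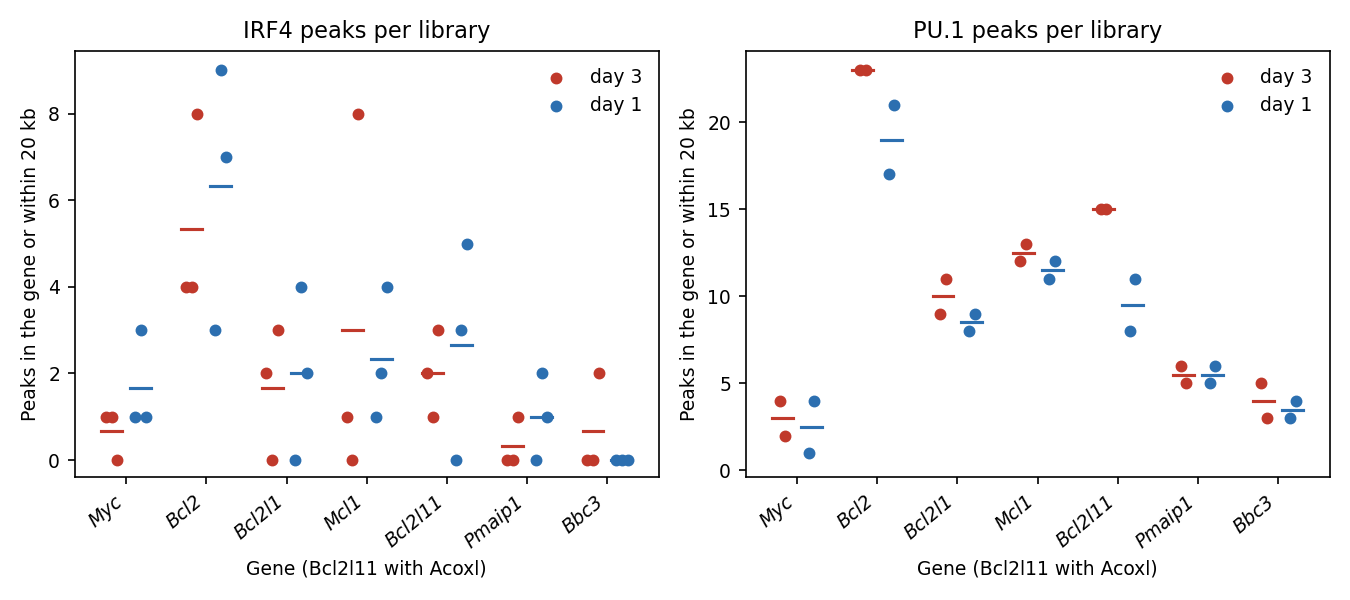
Each point is the number of peaks in 1 library at a gene or within 20 kb of it (Bcl2l11 with Acoxl), red for day 3 and blue for day 1, with the mean as a line, for IRF4 (left, 3 libraries per day) and PU.1 (right, 2 per day). The IRF4 points of the days overlap at all 7 genes, and the PU.1 points are apart at Bcl2 and Bcl2l11.

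PU.1 itself was called at 108 regions of the 7 genes, of 57563 in all. Of these 33 were in all 4 PU.1 libraries and 36 in 1 library (33.3%, against 36.8% of all PU.1 regions). There were 82 with no IRF4 peak in any library (75.9%, against 87.9% of all PU.1 regions), and among the 33 in all 4 PU.1 libraries there were 16 (48.5%, against 74.2%). Of those 16, the regions with the highest PU.1 enrichment lay 13.3 kb upstream of Mcl1 (594 and 359 on day 3, 266 and 353 on day 1), 165.0 kb from the start of Bcl2 (527 and 298 on day 3, 282 and 316 on day 1), 132.3 kb from the start of Bcl2 (259 and 219 on day 3, 182 and 262 on day 1), and 19.8 kb beyond the start of Pmaip1 (113 and 145 on day 3, 121 and 220 on day 1).

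Near the starts of the genes, PU.1 enrichment did not exceed 103. At least 1 of its 8 regions within 1 kb of a start lay at each of the 7 genes. At Myc this was a peak of PU.1 day 1 replicate 2 alone (17.3), and at Bcl2l11 of day 3 replicate 1 alone (48.8). The share of all genes with such a region was not computed, so the count is no result about these genes. The one at the start of Mcl1 was called in all 4 libraries, with 103 and 46.9 in the day 3 libraries and 26.3 and 54.4 in the day 1 libraries. The one at the start of Bcl2 was called in both day 3 libraries, with 27.0 and 16.1, and in no day 1 library. In all, 8 of the 108 PU.1 regions of the 7 genes (7.41%) were called in both day 3 and no day 1 library, 3 of them at Bcl2. The reverse, both day 1 and no day 3 library, held for 1 (0.926%), at Mcl1. Over all PU.1 regions 3.78% were called in both day 3 libraries alone and 2.38% in both day 1 libraries alone, so the day 3 share was the higher of the pair over the whole series too. Whether the genes differ from the series in this was not tested.

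Most IRF4 group-list peaks at these genes coincided with PU.1. A PU.1 group-list peak of the same day lay less than 200 bp away at 7 of 8 on day 3 (87.5%, against 64.1% of the whole list) and at 9 of 10 on day 1 (90.0%, against 56.8%). The peak without such a partner was that of Mcl1 at -7.9 kb on day 3, called in 1 PU.1 day 3 library, and that of Bcl2 at 128.8 kb on day 1, without PU.1 in any library. The counts with PU.1 were 4 on day 3 without IRF4 day 3 replicate 1, of 4 peaks left, and 5 on day 1 without IRF4 day 1 replicate 2 or 3, of 5 peaks left.

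For each IRF4 position, both strands of the surrounding 200 bp were searched for motifs. Of all IRF4 regions, with or without an EICE, 34.9% had a PU.1 peak. Of the 47 regions, 6 held an EICE (12.8%, against 9.51% of all IRF4 regions). All 6 had a PU.1 peak, a share that was not computed for the EICE regions of the whole series. An AP-1 site was found at 8, an ISRE at 4, a PU.1 site at 2, the AP-1 and IRF composite element (AICE: GAAA directly before TGANTCA, or TGANTCA and GAAA with 4 bases between them) at 0, and none of these at 32. Over all IRF4 regions the shares were 15.8% for AP-1, 6.96% for the ISRE, 5.27% for the PU.1 site and 1.82% for the AICE. An AICE match always holds an AP-1 match. Of the 7 regions in 5 or more libraries 3 held an EICE, where 37.2% of the 752 such regions of the series did.

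The 10 bases GGAACTGAAA made up the EICE at Myc, at Bcl2 161.2 kb and at Bcl2l1. They were 26.1% of the EICE matches in all IRF4 regions, 21.1% in regions of 1 library and 58.3% in regions of all 6 libraries. These 10 bases were read from the Myc region itself, so their recurrence at these genes supports nothing. The pattern with 1 base changed, added after the sequences were read, was found at 3 of the 47 regions and 4.93% of all IRF4 regions, and with it 5 of the 7 recurrent regions held a composite pattern, as did 50.9% of the 752 regions in 5 or more libraries. Since the pattern was taken from these sequences, its count here supports nothing. The NF-kB pattern, added likewise, was found at 2 of the 47, both in Bcl2, and at 1.10% of all. A match is a run of letters and does not show which protein sat there.

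**Figure D5:**
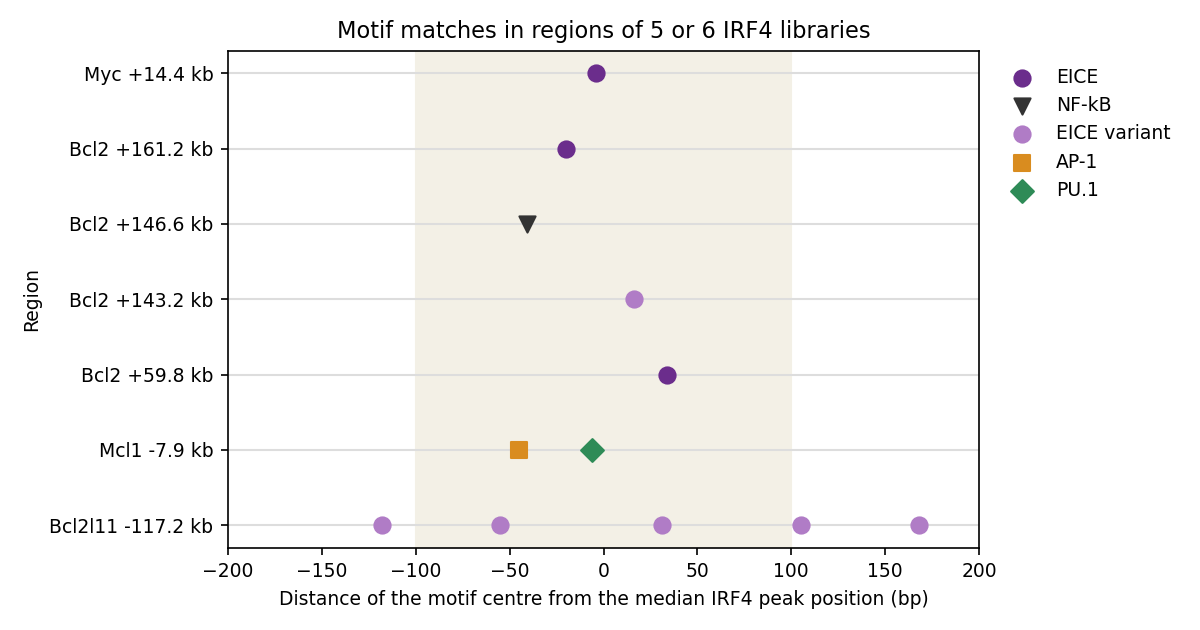
Motif matches in the 7 regions called in 5 or more IRF4 libraries are placed by the distance of their centre from the IRF4 peak position in bp; the shaded 200 bp is the window searched. The EICE of Myc lies at -4 bp from the peak position, and the Acoxl region (Bcl2l11, -117.2 kb) carries 5 copies of the changed element.

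Other genes of both pathways were described by the same rule. Of 18 other BCL2 family genes, 4 on day 3 and 5 on day 1 had an IRF4 group-list peak, and 15 on each day a PU.1 group-list peak. Whether these counts differ from the shares of all genes was not tested. Bak1, which encodes the pore former BAK, had a region at -13.9 kb from its start in 3 day 3 and 2 day 1 libraries, with PU.1 in all 4. Bax, the gene of the other pore former, had one in 2 day 3 libraries, and Bad, a BH3-only gene, had one at -0.286 kb in 2 libraries of each day. Bik, a further BH3-only gene, and Bcl2l12 had regions in 2 day 1 libraries without PU.1, and Bcl2l15 had 1 region in 2 day 3 libraries and 2 regions in 2 day 1 libraries each. Of 12 genes of the MYC network, 1 on day 3 and 2 on day 1 had an IRF4 group-list peak, and 10 and 9 a PU.1 group-list peak. Over all genes the IRF4 shares were 8.46% and 10.0%, so 1 or 2 of 12 is no result about these genes. The genes with an IRF4 peak were Mnt, which encodes a repressor that competes with MYC for its partner MAX, with a region at -2.30 kb in 2 libraries of each day, and Mlxip, with 3 group-list peaks on day 1.

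The genes most like Myc, Bcl2 and Bcl2l11 in their peak counts over the 10 libraries were found by the sum of absolute differences. Kcna2 differed from Myc by 1 peak of the 18 that Myc had, and Lmf1 and Mdh2 by 4 each. Akap13, Inpp4b and Celf2 differed from Bcl2 by 15, 19 and 20 of 119 peaks. Atp6v1d, Fem1b and Lnx2 differed from Bcl2l11, taken here without Acoxl, by 4 of 20 peaks each. These counts share libraries and list lengths, and they are a description.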

How the data were processed

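The 10 ChIP libraries and 4 group lists were deposited as peak lists, with an interval, a position and a maximum enrichment per peak. The maximum enrichment is a fold value, the ratio to input DNA that the authors computed with QuEST after mapping to mm9, per the series' design text; the submitters' processing notes also name mm9. Not given in the sources used here are the aligner, the QuEST version and thresholds, and whether positions count from 0 or 1. Enrichments were read within a list, with the following exceptions. A common lowest enrichment was applied to the lists of a factor as an alternative, and weak day 3 values at Bcl2l1 and Bbc3 were set beside the lowest enrichments of the day 1 lists. An IRF4 group list holds lines of several libraries, so its values are not on 1 scale. The lists hold no read counts, so depth is unknown and no interval is given for a peak. Repeated lines, 5 in the PU.1 day 3 and 7 in the PU.1 day 1 group list, were counted once.

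Replicates are numbered as in the sample descriptions. Genes are those of GENCODE M1 on mm9, and sequences were read from the mm9 reference. Positions less than 200 bp apart were merged, chained, into regions; the same distance defined a PU.1 partner. Motifs were matched exactly on both strands, and the AP-1 site, a palindrome, was counted once. The composite element with 1 base changed and the NF-kB pattern were added after the sequences had been read. The members and gene lists were chosen with earlier results of these data known. Every IRF4 region of the 7 genes called in 2 or more IRF4 libraries or in a group list is described by position, the other regions by counts; genes of the other lists are named where they have an IRF4 group-list peak, except 1 that is not reported here. Genes of most similar counts are the 3 with the smallest sum of absolute differences over the 10 libraries, ties in alphabetical order. The input library enters no comparison. Python 3.11.15, pandas 2.3.3, numpy 2.4.6, pysam 0.24.0 and matplotlib 3.10.9 were used, and the merging, the partner distance and the gene windows were tested on simulated data. Alternatives changed the distance around genes, the merging distance, the motif window, the weakest peaks kept, the group lists and the libraries included.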

Additional observations from a re-analysis of the deposited data

How the results depend on the processing

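Of 119 recomputed values, 98 stayed within 1.5 times the value given (the share of regions with a composite element within its counting interval) and 21 moved further; none has a test. With 5 kb around genes, 3 of the 7 genes on day 3 and 2 on day 1 had an IRF4 group-list peak. With the stronger 50% of each list, 6 IRF4 group-list peaks remained at these genes on day 1, 4 of them with PU.1, and there were 30 IRF4 regions, 6 of them called in more day 3 than day 1 libraries; that last count was 5 with a common lowest enrichment. Without Acoxl, Bcl2l11 had 4 IRF4 regions. To leave out a library, group lists were rebuilt from regions called in 2 or more remaining libraries of the day (1 where a single PU.1 library remained). Genes with an IRF4 group-list peak then numbered 2 to 4 on day 3 and 3 to 5 on day 1. IRF4 group-list peaks at the genes numbered 4 to 6 on day 3 and 5 to 10 on day 1. Those with PU.1, leaving out IRF4 or PU.1 libraries, numbered 4 to 8 on day 3 and 5 to 9 on day 1. The lowest values came without day 3 replicate 1 and without day 1 replicate 2 or 3. Regions in all IRF4 libraries numbered 2 to 4, the highest without day 3 replicate 3 or day 1 replicate 1. Regions called in more day 3 than day 1 libraries ranged between 0 (without day 3 replicate 3) and 23 (without day 1 replicate 2). Leaving out a library makes the number of libraries unequal between the days, which by itself can shift that count. The causes of these changes were not tested beyond the smaller number of libraries or peaks. No paired analysis was possible because the results are counts given as a description, for which no fit was made. Depth is unknown, so a missing peak may be a site below the calling threshold of that library.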

Other observations

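Other genes of cell death and its control were counted by the same rule. Of all genes, 8.46% on day 3 and 10.0% on day 1 had an IRF4 group-list peak, and 54.4% and 52.2% a PU.1 group-list peak. Of 15 caspases, caspase inhibitors and death receptors, 4 on each day had an IRF4 group-list peak, and 13 on day 3 and 15 on day 1 a PU.1 group-list peak. Apaf1, which encodes the scaffold that activates caspase-9, had a region 53.6 kb from its start in 2 day 3 and 3 day 1 libraries, and Casp6, an executioner caspase gene, had one at 3.56 kb in the same numbers of libraries. Casp8, the initiator caspase gene of death receptors, had a region at 7.03 kb in 3 day 3 and 2 day 1 libraries with PU.1 in all 4. Birc3, a caspase inhibitor gene and known NF-kB target, had a region in 2 day 3 libraries.

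Of 8 genes of the p53 pathway, 3 on day 3 and 2 on day 1 had an IRF4 group-list peak, and 6 and 7 a PU.1 group-list peak. Mdm4, which encodes an inhibitor of p53, had a region 12.8 kb from its start in 3 day 3 libraries and in 0 day 1 libraries, with PU.1 in all 4 libraries. Mdm2, the gene of the ligase that degrades p53, had one at -9.32 kb in 1 day 3 and 3 day 1 libraries. Trp73 had a region in 2 day 3 libraries, and Sesn1, a p53 target gene, had regions in libraries of both days. These genes were chosen with earlier results known, and no difference between the days was tested.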
